A study of Mus musculus with 4 samples.

Results

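RNA of the mouse cochleovestibular ganglion at embryonic day 11.5 was compared between the library labelled DKO and the library labelled Pou4f1KO, which differ, by label, in Isl1. The members were all genes with at least 1 TPM (a transcript level scaled for gene length and for the library's total) in either of these libraries, after rows with the same symbol were summed. This gave 14692 of the 25239 symbols. The series holds 4 libraries from dissected ganglia that were frozen whole, labelled control, Isl1CKO, Pou4f1KO and DKO. The abbreviations were taken to mean that Isl1 was conditionally deleted (CKO), that Pou4f1 was lost (KO) and that both were (DKO), so both libraries compared carry the Pou4f1 mutation. The Cre driver, the alleles, the strain, the sex of the embryos and the number of ganglia pooled are not given in the sources used here.

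In the inner ear, the cochleovestibular ganglion forms from neuroblasts that leave the otic vesicle and later divides into the spiral ganglion of hearing and the vestibular ganglion of balance. Young sensory neurons of cranial and dorsal root ganglia make the transcription factors ISL1, of the LIM-homeodomain class, and POU4F1 (BRN3A), of the POU class. In other sensory ganglia the pair is known for ending the programmes of neurogenesis and of other neuron classes and for switching on genes of sensory subtypes.

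Each genotype had 1 library, so no spread between replicates could be estimated, no test was run, and every difference is a size between libraries. Differences are log2 ratios of (TPM + 1), which understate those of weakly expressed genes, and 2-fold means a log2 ratio of at least 1 in size. A gene that reached 1 TPM in only 1 of the compared libraries had to be higher there, so its direction supports nothing. Pou4f1KO had 16.6 gigabases of aligned sequence and DKO had 16.1, which covered a gene at 1 TPM 5.77 and 5.83 times on average. Where 4 TPM values follow each other, they are in the order control, Isl1CKO, Pou4f1KO and DKO.

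The targeted genes were read first. Isl1 (chromosome 13, 116298270 to 116309688, minus strand, mm10) was at 450.4, 854, 339.6 and 579 TPM. It was thus higher, not lower, in both libraries whose label carries the Isl1 deletion, with a log2 ratio of 0.77 for DKO to Pou4f1KO and of 0.92 for Isl1CKO to control. A value over the whole gene need not reflect a deleted exon, and the label could not be checked from these tables. Pou4f1 was at 146, 188, 16.6 and 14.6 TPM, low in both libraries labelled as Pou4f1 mutants, and its log2 ratio of DKO to Pou4f1KO was -0.17. Below, the Isl1 label means the label only.

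Between the library labelled DKO and the library labelled Pou4f1KO most genes were close. The median log2 ratio was -0.02, the 10th and 90th percentiles were -0.33 and 0.25, and 91.7% of genes lay within 0.5. At least 2-fold higher in DKO were 97 genes (0.66% of those compared), and 168 (1.14%) were at least 2-fold lower, together 1.8%. Scaling both libraries to their pan-neuronal genes moved these counts to 116 and 133. Just inside the threshold, at a ratio of 1 to 1.1 in size, lay 28 higher and 34 lower genes, and just outside it, at 0.9 to 1, lay 26 and 53. Of the higher genes 60 (61.9%) were protein coding and of the lower ones 125 (74.4%), against 91.0% of all genes compared. Under 5 TPM in both libraries were 48 and 77, against 2842 of all 14692. Another limit is that 41 and 78 were under 1 TPM in 1 of the libraries, against 671 of all 14692. The direction of these genes was fixed by the minimum. The extremes include rows that share sequence. The row of the beta-globin gene Hbb-bs read 0.392 TPM in Pou4f1KO and 93.5 in DKO and that of its near copy Hbb-b1 read 70.0 and 0.391, but summed the pair had a log2 ratio of 0.41. The rows Rpl26 and Gm15772, named after their values were seen, behaved likewise and summed to a ratio of 0.14.

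**Figure D1:**
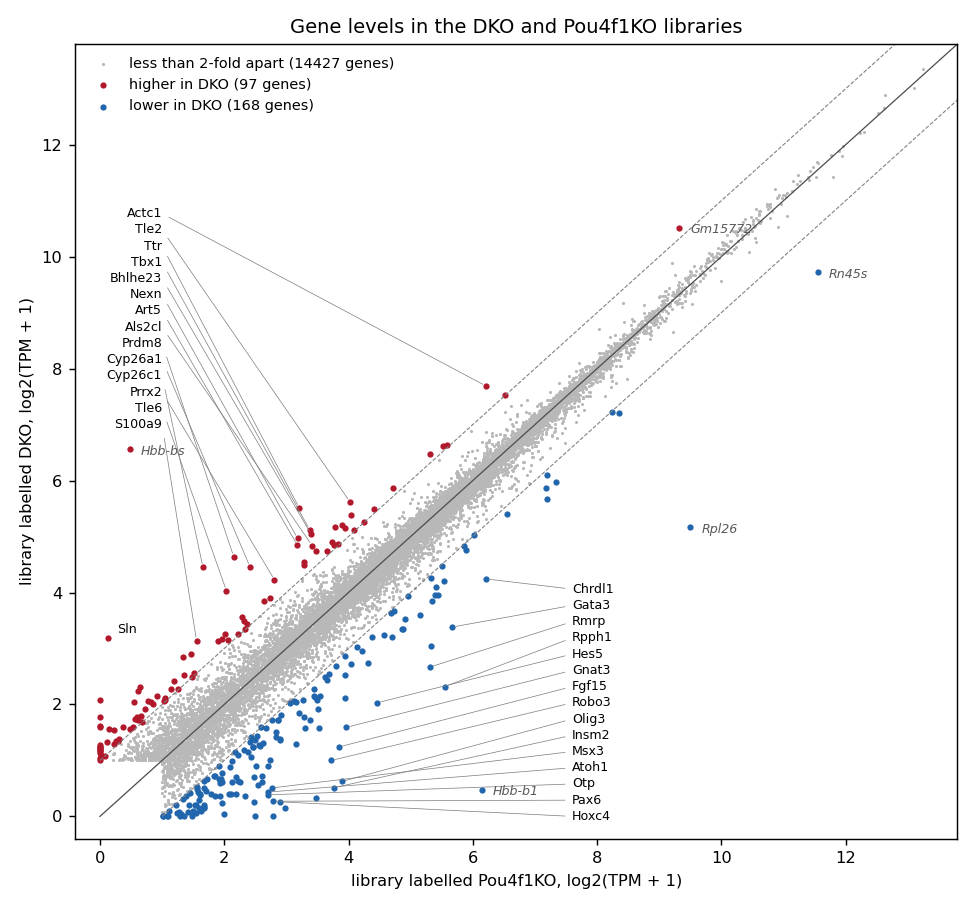
Level of each of the 14692 genes in the library labelled Pou4f1KO (x axis) and in the library labelled DKO (y axis), both as log2(TPM + 1). The dashed lines mark 2-fold, red points are the 97 genes higher in DKO, blue points the 168 lower ones, and italic grey names mark rows that overlap a near copy (Hbb-bs, Hbb-b1, Rpl26, Gm15772) and the ribosomal RNA precursor Rn45s.

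The Isl1 label also separates Isl1CKO from control, a pair that shares no library with DKO and Pou4f1KO. In Isl1CKO against control, 88 of 14688 genes (0.599%) passed 2-fold upward and 93 (0.633%) downward, together 1.23%. Over the 14331 genes compared in both pairs, 27 (0.188%) were higher with the Isl1 label in both, which is 34.6% of the 78 DKO-higher genes and 37.0% of the 73 Isl1CKO-higher genes. Lower in both were 32 genes (0.223%), 26.9% of the 119 DKO-lower and 40% of the 80 Isl1CKO-lower genes. The 27 include Sln, and the 32 include Insm2 and Aldh1a1, which reached 1 TPM on only 1 side in both pairs. The minimum fixed their direction in both pairs, and that of others, such as Fzd5, in 1 pair. Such genes were not counted, so the overlap is a description only. In opposite directions went 5 genes higher and 3 lower in DKO. The genes 2-fold higher in DKO had a median log2 ratio of 0.50 in Isl1CKO against control and those 2-fold lower one of -0.63, against -0.02 over all genes compared in both. Beside this, 4 Y-linked genes were lower in Isl1CKO than in the other libraries, as with Kdm5d at 16.9, 4.34, 16.5 and 13.5 TPM, while none of the 5 sex-linked genes on the list was 2-fold apart between Pou4f1KO and DKO. The part of embryo sex in the overlap was not tested.

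Of genes that stand on 1 row with no overlap and reach 5 TPM in each pair, the 8 in each direction with the largest smaller ratio in size over both pairs were taken, so their values below are a description of that choice. For 10 of these 16 a RefSeq transcription start gave a window of 250 bases before the start (build GRCm38.p6, the coordinates of mm10). Homeodomain factors bind sites with a TAAT core, so the windows were searched on both strands for TAATTA, for CTAATG and for the TAAT core. The 10 genes had 11 windows, as Tle6 has more than 1 start. None of the 11 held TAATTA or CTAATG, which 10.7% of all 32851 start windows of that length did. The core was in a window of 4 of the 10 genes, against 54.9% of all windows, a share of windows and not of genes. The windows of the most lowered transcription factor and the most raised ones that hold no exon of their own gene are shown, 5′ to 3′ on the gene's strand, with the core in capitals. They are chr2:9878601-9878850 on the minus strand for Gata3, chr5:98180619-98180868 on the plus strand for Prdm8 and chr2:180776901-180777150 on the minus strand for Bhlhe23.
Gata3: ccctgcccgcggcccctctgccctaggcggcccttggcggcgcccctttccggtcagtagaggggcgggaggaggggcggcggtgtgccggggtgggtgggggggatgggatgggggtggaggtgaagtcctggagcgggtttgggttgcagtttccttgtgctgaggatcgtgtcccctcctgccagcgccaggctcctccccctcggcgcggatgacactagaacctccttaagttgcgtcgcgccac
Prdm8: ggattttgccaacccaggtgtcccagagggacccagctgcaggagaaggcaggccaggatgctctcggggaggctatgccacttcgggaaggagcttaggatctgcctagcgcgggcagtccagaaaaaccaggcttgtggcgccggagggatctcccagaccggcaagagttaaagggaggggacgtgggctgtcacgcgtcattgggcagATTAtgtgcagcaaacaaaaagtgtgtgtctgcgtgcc
Bhlhe23: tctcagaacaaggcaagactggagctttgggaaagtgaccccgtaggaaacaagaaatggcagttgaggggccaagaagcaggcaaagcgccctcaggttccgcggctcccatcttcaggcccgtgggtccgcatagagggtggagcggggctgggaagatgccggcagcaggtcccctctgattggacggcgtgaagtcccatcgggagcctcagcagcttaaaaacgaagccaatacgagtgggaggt
The Prdm8 window holds 1 core, written ATTA on this strand, 38 bases before the start, and the other windows hold none. A match is a run of letters, and its absence concerns these 250 bases only.

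Of the genes lower with the Isl1 label in both pairs, Gata3 encodes a zinc-finger factor needed in the otic vesicle and its auditory neurons. It was at 38.5, 7.39, 49.9 and 9.43 TPM. Both libraries with the Isl1 label were low and both without it were high, with a log2 ratio of -2.29 for DKO to Pou4f1KO and of -2.24 for Isl1CKO to control. Gnat3, the alpha subunit of the taste G protein gustducin, was at 17.1, 2.12, 14.6 and 2.01 TPM, with ratios of -2.37 and -2.54. Chrdl1, a secreted antagonist of bone morphogenetic proteins, was at 41.5, 11.4, 73.4 and 17.9 TPM, with ratios of -1.97 and -1.77. The order was again the same, with both carriers of the Isl1 label below both other libraries. Msc, a basic helix-loop-helix repressor (musculin), was at 84.5, 33.1, 160.5 and 62.1 TPM, with ratios of -1.36 and -1.33, and here Pou4f1KO was also well above control. The other 4 were Ptar1, the phosphatase gene Ptpn4, Xkr4 and the junctophilin gene Jph1, all between 6.31 and 10.1 TPM in the libraries without the Isl1 label and between 2.0 and 3.41 TPM in those with it.

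Of the genes higher with the Isl1 label in both pairs, Prdm8 encodes a histone-methyltransferase-like repressor of the PRDM family. It was at 3.31, 20.7, 3.45 and 23.9 TPM, with ratios of 2.49 for DKO to Pou4f1KO and 2.33 for Isl1CKO to control. Bhlhe23, a basic helix-loop-helix repressor known from retinal and brain interneurons, was at 8.06, 28.9, 9.55 and 31.9 TPM, with ratios of 1.64 and 1.72. For both genes DKO lay near Isl1CKO, and Pou4f1KO near control. The Groucho family of co-repressors, which homeodomain and HES factors recruit, had 6 members compared. Tle6 was at 3.33, 12.8, 3.10 and 15.3 TPM (log2 ratio of DKO to Pou4f1KO 1.99), and Tle2 at 14.0, 47.6, 15.3 and 48.1 TPM (1.59). Tle1, Tle3, Tle4 and Tle5 stayed between -0.27 and 0.24. Tle2 and Tle6 are neighbours on chromosome 10, with Tle2 from 81575287 to 81590845 on the plus strand and Tle6 from 81590904 to 81600900 on the minus strand in mm10. The deposited rows thus end next to each other, with both genes read toward the shared end.

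The remaining 4 of the 8 are genes of striated muscle. Actc1, cardiac actin, was at 53.9, 191, 73.1 and 206 TPM, with ratios of 1.48 for DKO to Pou4f1KO and 1.81 for Isl1CKO to control. Nexn, the actin-binding protein nexilin, was at 5.58, 23.9, 8.06 and 30.3 TPM (1.79), and the ecto-ADP-ribosyltransferase gene Art5 at 6.09, 25.1, 8.05 and 27.7 TPM (1.66). Sln, the calcium pump inhibitor sarcolipin, was listed at 0 in control and was at 5.09, 0.0913 and 8.06 TPM in the other libraries. All 4 were thus low without and high with the Isl1 label, which is how they were chosen. Sln reached 1 TPM only in the libraries with the label, so it had to be higher in both pairs. Of 38 striated muscle genes listed 17 were compared. Through DKO only came 3 of them, Sln and Tnnt3 among these, which had to be higher. The 2-fold higher ones were these 4, Tnnt3 and Chrng, 1 (Pax3) was lower, and the median was 0.17. With the deposited FPKM the median was 1.0. The same minimum of 1 then left fewer genes, 12904 in all, so this median need not cover the same 17 genes. With the other pseudocounts and scalings the median of the list lay between 0.10 and 0.29. Chrng and Pax3 were named after their values were seen. The summed level of the list was 116, 309, 151 and 351 TPM. Defining genes of muscle, named after their values were seen, were under 1 TPM in both libraries. Myod1 was at 0.0741 TPM in Pou4f1KO and 0.807 in DKO, Myog at 0.778 and 0.708, and Ttn, the giant sarcomere protein, at 0.0367 and 0.0273.

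**Figure D2:**
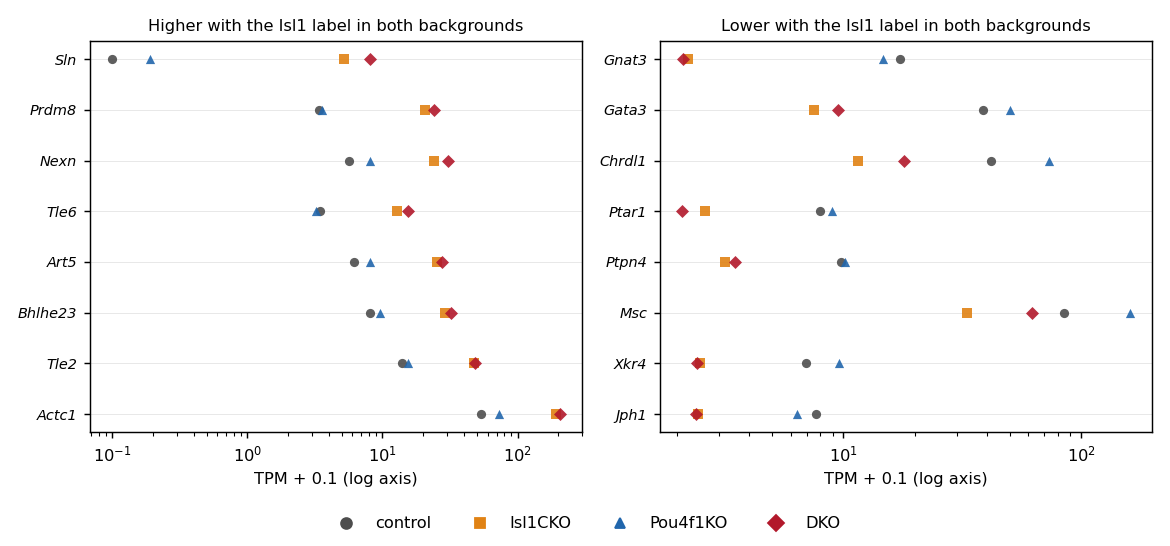
TPM + 0.1 on a log axis in each of the 4 libraries for the 8 genes higher (left) and the 8 lower (right) with the Isl1 label that were taken by the smaller ratio over both pairs, among genes on 1 row with no overlap that reach 5 TPM in each pair. Isl1CKO (orange squares) and DKO (red diamonds) lie on the same side of control (grey circles) and Pou4f1KO (blue triangles) in all 16 genes.

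**Figure D3:**
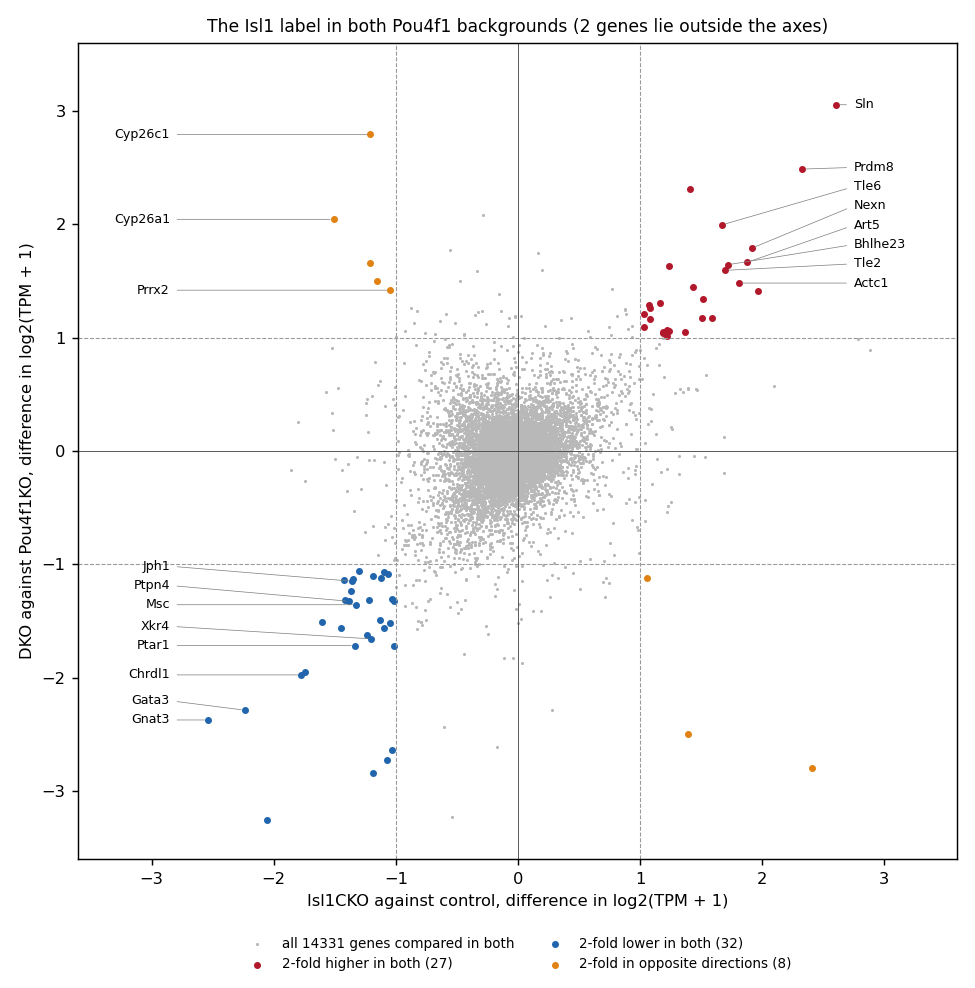
Log2 ratio of Isl1CKO to control (x axis) against log2 ratio of DKO to Pou4f1KO (y axis) for the 14331 genes compared in both. Red points are the 27 genes 2-fold higher in both, blue points the 32 lower in both and orange points the 8 in opposite directions, and 2 genes lie outside the axes.

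Of the pan-neuronal genes, a list of genes in wide use among young neurons, 0 of 33 were 2-fold apart. Single levels ranged widely. Nefm was at 3543 TPM in Pou4f1KO and 2733 in DKO, and Nefh, named after its values were seen, at 5.47 and 4.05. The median log2 ratio of the list was -0.20 and 28 of 33 genes were below 0, with a summed level of 18194, 19343, 20184 and 17450 TPM. The lowest was Prph, the peripheral neuron filament peripherin, at 162, 112, 119 and 61.2 TPM (-0.95), followed by the microtubule protein gene Mapt at 358, 315, 357 and 225 TPM (-0.66). Celf4, an RNA-binding protein gene, went the other way at 58.5, 111, 73.3 and 116 TPM (0.66). In bulk tissue fewer neurons and less RNA per neuron cannot be told apart.

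Receptors for neurotrophins, the survival factors of these neurons, were measured as part of a list with the GDNF pathway. Ntrk2, the BDNF receptor TrkB, was at 72.6, 55.2, 57.2 and 27.5 TPM and Ntrk3, the NT3 receptor TrkC, at 14.7, 8.87, 14.7 and 7.07 TPM. DKO was the lowest library for both, with log2 ratios to Pou4f1KO of -1.03 and -0.96. Scaling to the pan-neuronal genes in place of all genes put Ntrk2 at -0.90. The neurotrophin and GDNF list had 1 of 19 genes 2-fold lower and 0 higher, with a median of -0.17.

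Most axon guidance genes did not pass 2-fold. Of 40 Eph, ephrin, Slit, Robo and netrin genes 3 were 2-fold lower and 0 higher (median -0.27, or -0.15 with pan-neuronal scaling), and of 31 semaphorin, plexin and neuropilin genes 1 was lower (median -0.14, or -0.03 with that scaling). Epha5, an ephrin receptor, was at 30.0, 16.9, 28.0 and 9.19 TPM (-1.51), and Sema3e, a ligand of plexin D1, at 6.39, 2.90, 4.40 and 1.09 TPM (-1.37). DKO was the lowest library for both and Isl1CKO the next. Robo3, a receptor of commissural axons, was at 4.12, 1.43, 12.2 and 1.0 TPM (-2.73), and Dcc, the netrin receptor, at 2.59, 4.91, 7.92 and 3.10 TPM (-1.12), with Pou4f1KO the highest library for both.

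Sodium channel genes were the channel list with the lowest median, -0.60, or -0.49 with pan-neuronal scaling, and of 11 compared 1, Scn9a, was 2-fold lower. Scn10a, 1 of the 11, reached 1 TPM in Pou4f1KO only of the compared pair and had to be lower. Scn9a, the channel Nav1.7 of sensory neurons, was at 66.8, 47.3, 41.0 and 14.6 TPM (-1.43). Each mutant lay below control and DKO lay lowest. Of 45 potassium channel genes 1, Kcnk9, was lower (median -0.25). Of these 45 genes 5, Kcnk9 among them, reached 1 TPM in Pou4f1KO only of the compared pair and had to be lower. Of 39 calcium, HCN, TRP and mechanosensory channel genes 2 were lower, Cacna2d3 and Cacna1e, and 1 higher. Cacna1e, the R-type calcium channel, was at 41.3, 25.4, 39.3 and 18.2 TPM (-1.07). The higher one was Pkd2l1, a channel of the polycystin family, at 7.44, 23.2, 15.5 and 40.7 TPM (1.34), and it was also higher in Isl1CKO than in control (1.52).

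Transmitter receptors went both ways, with 4 of 36 lower and 1 higher. Of the 36, 2 reached 1 TPM in Pou4f1KO only and had to be lower, and Glra1, 1 of the 4, is among them. The kainate receptor gene Grik3 was at 21.2, 7.11, 34.6 and 11.1 TPM (-1.56) and the NMDA receptor gene Grin3a at 19.9, 7.20, 58.4 and 26.1 TPM (-1.13), both on rows that overlap another gene on the same strand. Htr3a, the serotonin-gated channel, was at 33.6, 65.2, 44.7 and 97.1 TPM (1.1), and was higher in Isl1CKO than in control as well (0.93). Penk, the enkephalin precursor, was the 1 of 25 neuropeptide and dense-core vesicle genes 2-fold higher, at 11.5, 8.76, 14.5 and 34.6 TPM (1.2), and here DKO alone was high.

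Among factors of sensory subtypes, Hmx1, a homeobox gene of cranial sensory ganglia, was at 107, 161, 91.0 and 183 TPM (1.0), and Runx3, a factor of proprioceptive neurons, at 1.08, 1.77, 1.39 and 3.15 TPM (0.79). Prrxl1 (DRG11), a homeobox gene of somatosensory neurons, was at 4.23, 4.17, 1.61 and 0.292 TPM (-1.02). For Prrxl1, which reached 1 TPM in Pou4f1KO but not in DKO, both Pou4f1 mutants lay below both other libraries. Both Pou4f1 mutants were also low, and DKO lowest, in the phosphatase inhibitor gene Ppp1r1c at 100.5, 70.9, 22.7 and 8.42 TPM (-1.33) and in Tafa2, a secreted neuronal protein gene, at 40.5, 29.8, 15.5 and 5.61 TPM (-1.32), both chosen after their values were seen. Pvalb, parvalbumin, was at 13.7, 12.9, 0.535 and 2.30 TPM (1.1), low in both Pou4f1 mutants, of which DKO alone reached 1 TPM. The LIM-homeodomain list had 1 of 15 genes 2-fold higher and 2 lower, with a median of -0.02, or 0.11 with pan-neuronal scaling. The higher one was Lmo3, a LIM-only cofactor, at 0.838, 2.38, 2.72 and 7.79 TPM (1.24). The lower ones were Lhx5 (-1.74) and Lhx9 (-1.23). Of the 15 genes 2, Lhx9 among them, reached 1 TPM in Pou4f1KO only and had to be lower. Lhx1, short of 2-fold, was at 3.05, 28.8, 9.72 and 18.9 TPM (0.89).

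Some factors of the developing hindbrain and neural tube were high in the library labelled Pou4f1KO alone, and 18 of the 33 compared were not 2-fold apart. Olig3, a factor of dorsal neural progenitors, was at 0.447, 0.799, 13.9 and 0.542 TPM (-3.27). Atoh1, a proneural gene of hair cells and rhombic lip progenitors, was at 0.191, 0.413, 5.51 and 0.351 TPM (-2.27), and Pax6 at 0.641, 0.314, 5.86 and 0.206 TPM (-2.51). In each gene 1 library was high and the other 3 were under 1 TPM. Otp, Msx3 and Lhx5, also factors of neural tube domains, were between 5.52 and 5.78 TPM in Pou4f1KO and at most 1.0 TPM elsewhere. Of 33 neural tube and hindbrain factors compared (51 listed), 15 were 2-fold lower in DKO and 0 higher, but 17 of the 33 reached 1 TPM in Pou4f1KO only and had to be lower, so this count supports nothing. The summed level of all listed members was 210.4, 152, 276 and 191 TPM.

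Several Hox genes, which mark position along the hindbrain and trunk, were also highest in Pou4f1KO. Hoxc4 was at 0.120, 0.0305, 6.43 and 0.198 TPM (-2.63). Hoxb3 was at 9.01, 9.19, 24.9 and 8.28 TPM (-1.48), but Hoxa2 was at 15.7, 13.2, 21.2 and 19.2 TPM (-0.14), and both were named after their values were seen. The 9 Hox genes 2-fold lower, of 11 compared and 34 listed, include 8 that reached 1 TPM in Pou4f1KO only. Hoxd3, Hoxa3, Hoxd4 and Hoxa4 stand on rows that overlap a neighbour in their cluster. The summed level of the 34 was 36.7, 37.0, 104 and 43.4 TPM, and 10 of them were listed at 0 in DKO and 11 in Pou4f1KO.

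Most Notch and FGF pathway genes were not 2-fold apart. Hes5, a target of Notch signalling in progenitors, was at 4.36, 2.52, 21.1 and 3.09 TPM (-2.43), and Dll1, a Notch ligand, at 11.9, 10.5, 16.6 and 7.14 TPM (-1.11). Of 26 Notch pathway genes only these 2 were 2-fold lower and 0 were higher, with a median of -0.07, or 0.06 with pan-neuronal scaling. Fgf15, which the embryonic hindbrain and midbrain secrete, was at 3.06, 2.61, 13.4 and 1.36 TPM (-2.61) and its receptor family member Fgfr3 at 1.99, 2.01, 8.16 and 2.60 TPM (-1.35). Of 21 FGF pathway genes 3 were 2-fold lower and 0 higher, with a median of -0.13, or -0.0015 with pan-neuronal scaling. Of the 21 genes 1 reached 1 TPM in Pou4f1KO only and had to be lower. For Hes5, Dll1, Fgf15 and Fgfr3 Pou4f1KO was the high library and DKO lay near control or below it. Insm2, a zinc-finger gene of neuroendocrine and neuronal precursors, was low with the Isl1 label in both pairs, at 4.09, 0.228, 12.6 and 0.429 TPM (-3.26 and -2.05). It reached 1 TPM only in the libraries without that label, so it had to be lower in both pairs. Pou4f1KO was the highest library for Insm2 as well. Neurog1, the proneural factor of the otic neuroblasts (named after its values were seen), was at 16.3, 10.5, 17.5 and 6.74 TPM (-1.26), lowest in DKO.

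Of 10 short structural RNA and ribosomal precursor genes compared 5 were 2-fold lower in DKO and 0 higher, and 3 of the 10 were above 0, up to 0.49. Rpph1, which encodes the RNA subunit of ribonuclease P, was at 2.40, 1.34, 45.9 and 3.99 TPM (-3.23), Rmrp, the RNA of ribonuclease MRP, at 4.96, 1.92, 38.5 and 5.35 TPM (-2.64), and Rn45s, the ribosomal RNA precursor, at 674, 655, 3003 and 844 TPM (-1.83). For these 3 genes Pou4f1KO was the highest library. Such RNAs carry little or no poly(A) tail, and their part in the neural tube and Hox results was not tested.

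**Figure D4:**
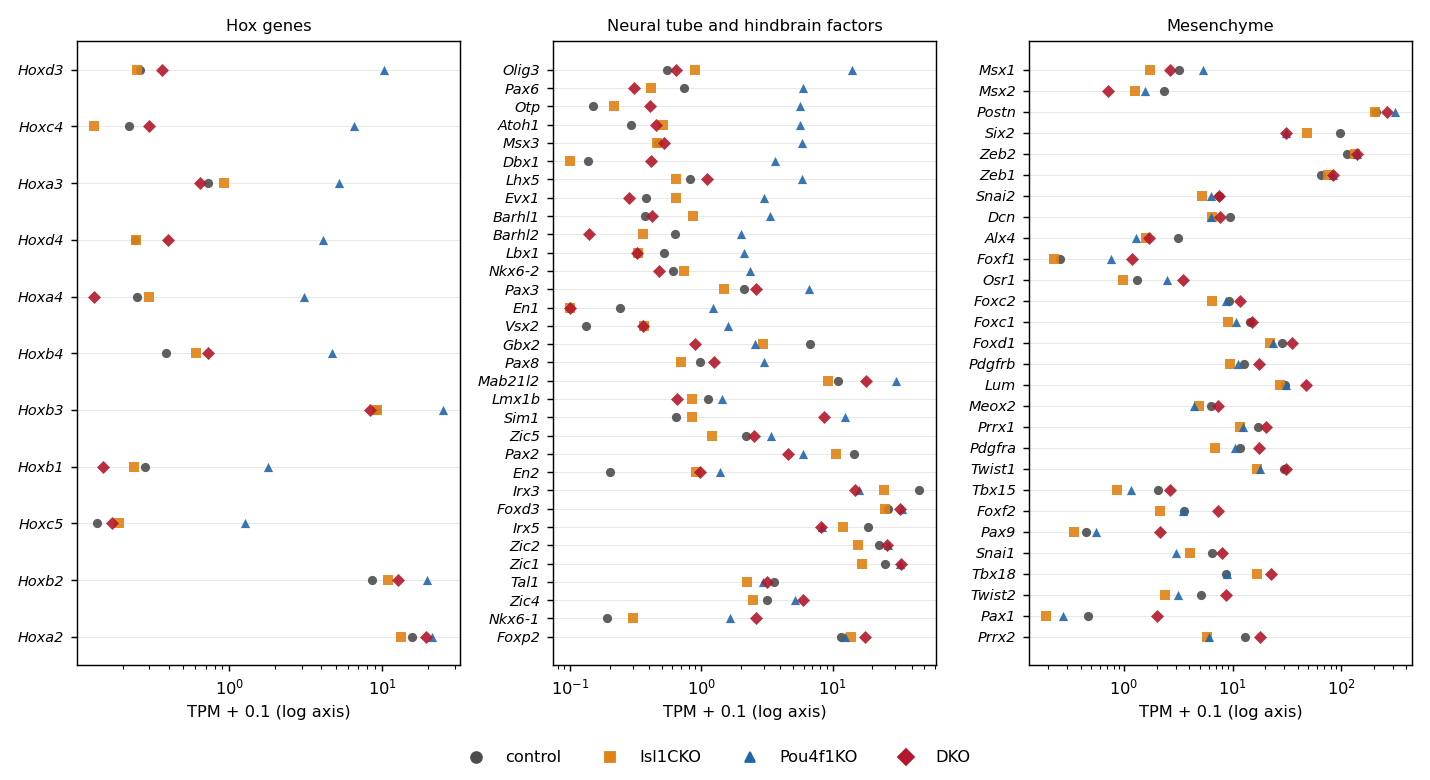
TPM + 0.1 on a log axis in the 4 libraries for compared members of 3 marker lists (1 neural tube gene is not shown), ordered by the log2 ratio of DKO to Pou4f1KO. Pou4f1KO (blue triangles) lies apart to the right for most Hox genes and for the upper neural tube genes, and DKO (red diamonds) lies to the right of Pou4f1KO for most mesenchyme genes.

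Retinoic acid metabolism held some of the largest differences. The CYP26 enzymes clear retinoic acid and ALDH1A enzymes make it. Cyp26c1 was at 19.7, 7.95, 2.16 and 20.8 TPM (2.79) and Cyp26a1 at 16.3, 5.07, 4.33 and 21.0 TPM (2.04). For both genes DKO was near control and both single mutants were low, so that the ratio of Isl1CKO to control had the opposite sign, -1.21 and -1.51. They are neighbours on chromosome 19, with Cyp26c1 from 37685680 to 37693307 and Cyp26a1 from 37697808 to 37701536, both on the plus strand in mm10. Cyp26b1 on chromosome 6 was higher with the Isl1 label in both pairs, at 6.40, 20.0, 12.3 and 29.0 TPM (1.17 and 1.5). Aldh1a1, on an overlapping row, was at 1.74, 0.200, 6.88 and 0.104 TPM (-2.84). Of the compared pair it reached 1 TPM in Pou4f1KO only, so it had to be lower. The list had 4 of 19 genes 2-fold higher and 1 lower. The fourth was Ttr, the carrier of thyroid hormone and of retinol-binding protein and a choroid plexus gene, at 2.36, 7.92, 8.22 and 44.8 TPM (2.31), with DKO alone above 10.

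Otic vesicle genes differed in both directions. Tbx1, a T-box factor of the otic epithelium and of pharyngeal tissue, was at 11.7, 13.1, 9.38 and 33.8 TPM (1.74). Oc90, a main protein of otoconia, was at 128, 115, 12.8 and 35.0 TPM (1.39), low in both Pou4f1 mutants. Fgf10, a growth factor of neurosensory otic cells, was at 96.5, 46.7, 144 and 57.5 TPM (-1.31) and was also lower in Isl1CKO (-1.03). Hmx3, a homeobox gene of the dorsal vesicle, was at 13.4, 8.30, 2.79 and 0.593 TPM (-1.25). The list had 2 of 39 genes higher and 5 lower, where 4 of the 39, Hmx3 among them, reached 1 TPM in Pou4f1KO only and 1 in DKO only, with a median of -0.32 and a summed level of 1771, 1305, 1222 and 1042 TPM. Surface epithelium genes were low in both libraries, with a summed level of 467, 278, 95.5 and 102 TPM. Isl1CKO also lay below control, with a median log2 ratio of -0.68.

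Mesenchyme genes had a median of 0.59, with 6 of 28 genes 2-fold higher and 0 lower, where 3 of the 28 reached 1 TPM in DKO only. Prrx2, a homeobox gene of mesenchyme, was at 12.8, 5.71, 6.01 and 17.7 TPM (1.42), Twist2 at 5.05, 2.30, 3.02 and 8.61 TPM (1.26), and Tbx18, a T-box factor of the periotic mesenchyme, at 8.64, 16.7, 8.78 and 22.3 TPM (1.25). DKO was the highest library for each, and control was the next for Prrx2 and Twist2. The summed level of the list was 709.5, 631, 749 and 817 TPM. Endothelium and pericyte genes had 0 of 23 genes 2-fold apart and all 23 above 0 (median 0.35, summed 204, 145, 183 and 246 TPM). All 16 macrophage genes compared were above 0 as well (median 0.36, summed 89.8, 80.1, 68.2 and 91.4 TPM). In each of these lists 1 gene reached 1 TPM in DKO only and had to be higher. The part of a different share of such cells in the neuronal results was not tested.

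Genes of cell state differed little. None of 27 BCL2 family and cell death genes, 23 p53 targets, 33 proliferation genes or 26 glycolysis and hypoxia genes was 2-fold apart, with medians of -0.03 (0.10 with pan-neuronal scaling), 0.07, 0.09 and 0.22. The p53 target Cdkn1a was at 71.5, 109.5, 85.9 and 113 TPM (0.39). Ccnd1, the G1 cyclin D1, was at 463, 511, 295 and 379 TPM (0.36), the largest ratio of the proliferation list. Pdk1, a hypoxia-induced kinase of pyruvate dehydrogenase, was at 22.2, 30.5, 19.5 and 30.5 TPM (0.62).

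Transcript length moved with the ratio. Among protein coding genes split into 5 equal bins by their longest GENCODE transcript, the median log2 ratio of DKO to Pou4f1KO was 0.04, 0.02, -0.01, -0.04 and -0.12 from the shortest to the longest bin. In Isl1CKO against control it was -0.01, -0.01, -0.01, -0.02 and -0.09. Many channel, guidance and receptor genes named above are long, and the part of length in their ratios was not tested.

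**Figure D5:**
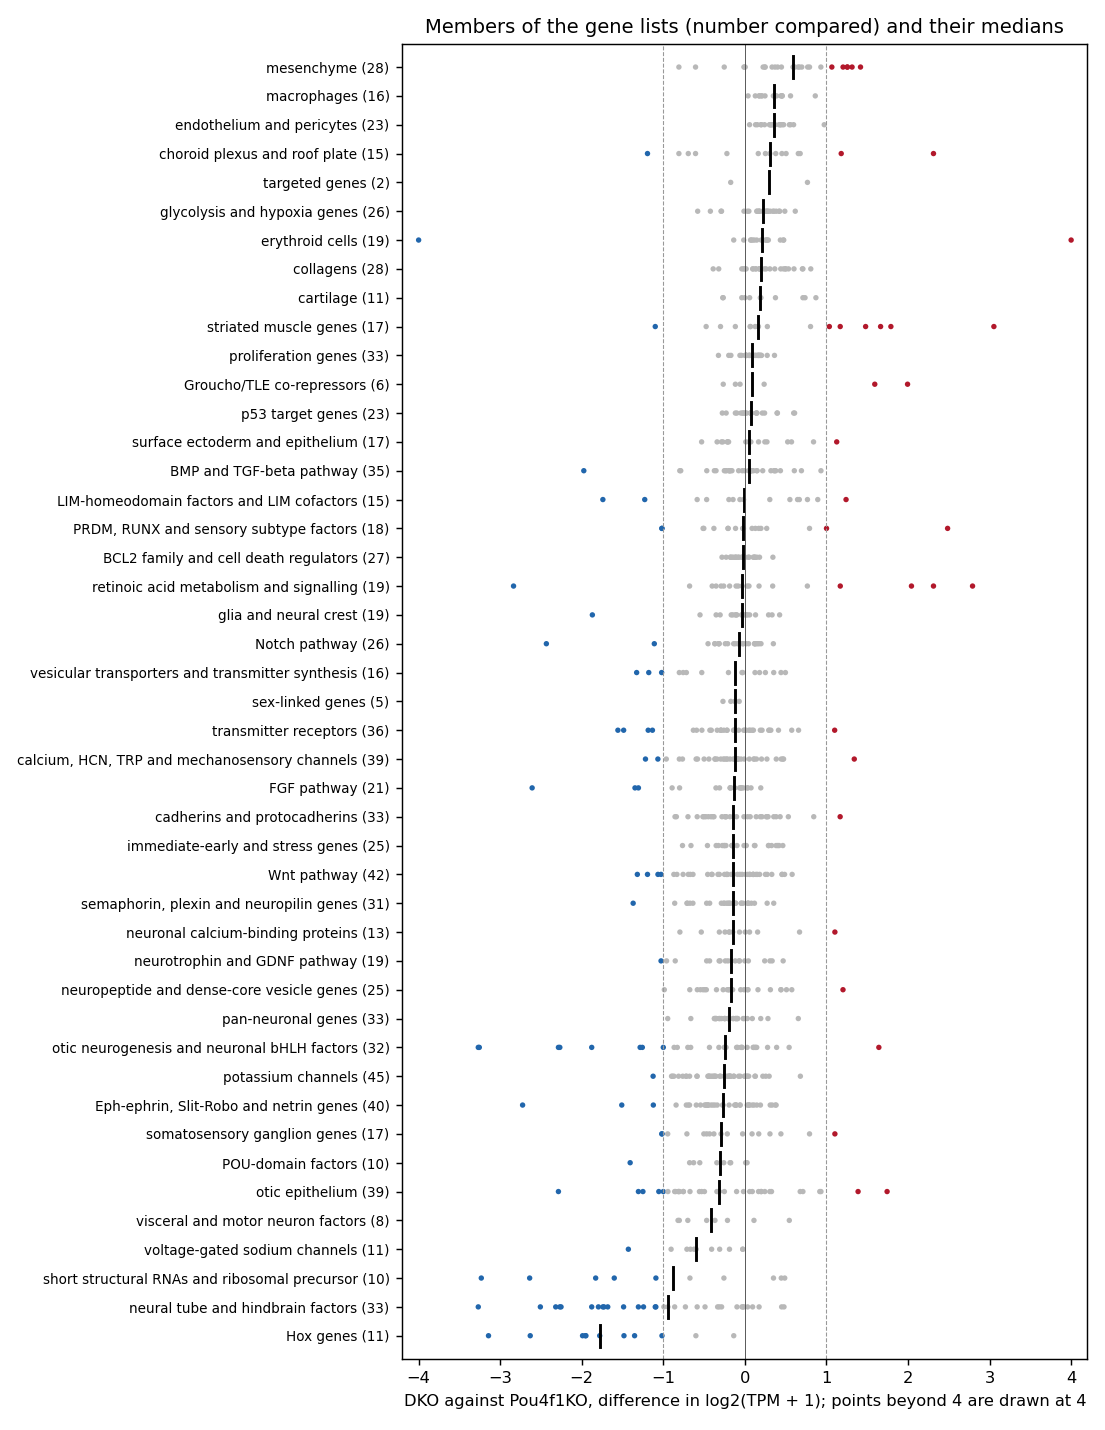
Log2 ratio of DKO to Pou4f1KO for each compared member (points) of the 45 gene lists, with the list's median as a black bar and the number compared in brackets. Red and blue points are at least 2-fold higher and lower, and the 2 globin rows beyond 4 are drawn at 4. Hox genes (median -1.78) and mesenchyme genes (0.59) stand at the ends of the order, but 8 of the 11 Hox genes reached 1 TPM in Pou4f1KO only and had to be lower, and 3 of the 28 mesenchyme genes reached it in DKO only.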

How the data were processed

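RNA-seq libraries from 4 genotypes, 1 each, were used as deposited. The submitters' processing notes name HISAT2, StringTie, SAMtools, Trimmomatic and FastQC, and build mm10, while versions, settings and annotation are not given in the sources used here. Per the labels' protocols, the library kit was strand-specific. Each table gave TPM per gene, computed by the authors and summing to the same total in each library, FPKM (per length and depth), and coverage (mean read depth), per the file headers. Read counts were not used here, so no count test was run. Depth was taken from the ratio of coverage to FPKM, which was equal within 0.001 for 63.7% to 63.9% of rows.

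TPM of rows with the same symbol was summed (260 symbols stood on several rows), and log2 ratios of (TPM + 1) were taken for genes at 1 TPM or more in either library, with pandas 2.3.3 and numpy 2.4.6 in python 3.11.15; the script was tested on simulated data. Symbols were matched to GENCODE for type and length (96.5% found). Start windows came from RefSeq. Named are Isl1 and Pou4f1; the 15 highest and 15 lowest genes at 5 TPM or more on 1 unshared row; up to 5 genes per list by size; and 8 genes each way with the largest smaller ratio over both pairs of the Isl1 label, with up to 6 in opposite directions, at 5 TPM or more in each pair on 1 unshared row. Other genes are marked as chosen after their values were seen. The members and 45 gene lists were chosen with earlier results of these data known. Alternatives covered the pseudocount, FPKM, other scalings, the minimum and overlapping rows. A few genes are not reported here.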

Additional observations from a re-analysis of the deposited data

Results flagged for a closer look

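Some results moved in opposite directions with the Isl1 label in the 2 Pou4f1 backgrounds. With 1 library per genotype, the difference between the backgrounds was not tested. The log2 ratio of Cyp26a1 was 2.04 for DKO to Pou4f1KO and -1.51 for Isl1CKO to control. For Cyp26c1 the ratios were 2.79 and -1.21, and for Prrx2, a mesenchyme gene, they were 1.42 and -1.04. The median of the mesenchyme genes was 0.59 for DKO to Pou4f1KO and -0.54 for Isl1CKO to control. For endothelium and pericyte genes the medians were 0.35 and -0.39.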

How the results depend on the processing

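No paired analysis was possible because each genotype has 1 library, so leaving out a replicate gives no comparison either. The counts depended on how low values were treated. With a pseudocount of 0.1 TPM, 217 genes were higher and 342 lower in DKO, 53 were higher and 67 lower with the Isl1 label in both pairs. With 5 TPM these became 24, 41, 10 and 7, and with the deposited FPKM values (same pseudocount and minimum of 1) 42, 69, 16 and 9. A minimum of 5 TPM in either library left 49 higher and 91 lower in DKO and 18 lower in both pairs, and a minimum of 1 TPM in both libraries left 56 higher and 90 lower. The other counts under these and under median-of-ratios, pan-neuronal and rescaled values, no minimum, or without overlapping rows were within 1.5 times the main ones. Pan-neuronal scaling shifted the median of all genes by 0.12 and took the share of higher genes among those past 2-fold from 36.6% to 46.6%. Of 91 named genes past 2-fold, 48 fell short of it with a pseudocount of 5 TPM, 16 with FPKM, 8 with pan-neuronal scaling and 1 (Tlx2) with median-of-ratios scaling. None of these 91 reversed under the pseudocount, FPKM and scaling alternatives, which was not counted for named genes short of 2-fold. The medians of 9 of 45 gene lists changed sign with pan-neuronal scaling and of 5 with FPKM. After removal of short structural RNAs their own list gave no value.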

Other observations

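Gene groups not described above were mostly close between the library labelled DKO and the library labelled Pou4f1KO. Of 42 Wnt pathway genes 4 were 2-fold lower in DKO and 0 higher, with a median log2 ratio of -0.14, where 6 of the 42, Wnt3a among them, reached 1 TPM in Pou4f1KO only and had to be lower, and 2 reached it in DKO only. They were Fzd5, a Wnt receptor, at 4.96 TPM in Pou4f1KO and 1.39 in DKO, the dorsal midline ligand Wnt3a at 2.91 and 0.709, the ligand Wnt7b at 7.69 and 3.15, and Sfrp5, a secreted Wnt inhibitor, at 7.29 and 3.06. Fzd5 and Wnt7b were also 2-fold lower in Isl1CKO than in control, with ratios of -1.22 and -1.09. Fzd5 was at 3.28 TPM in control and 0.837 in Isl1CKO, so it had to be lower in that pair. Among 35 genes of the BMP and TGF-beta pathway Chrdl1 was the 1 gene past 2-fold, and the ligand Bmp4 was at 2.46 TPM in Pou4f1KO and 5.60 in DKO (0.93). None of 28 collagens was 2-fold apart (median 0.19, with 5 below 0).

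Of 16 genes of transmitter synthesis and vesicular transport 3 were 2-fold lower in DKO and 0 higher, but these 3 reached 1 TPM in Pou4f1KO only and had to be lower in DKO. Gad1, which makes GABA, was at 1.88 TPM in Pou4f1KO and 0.147 in DKO, and Slc6a5, the glycine transporter of inhibitory neurons, was at 1.03 TPM in Pou4f1KO and listed at 0 in DKO. The POU-domain factor Pou3f2 (BRN2) was at 4.01, 1.96, 14.3 and 4.78 TPM, a log2 ratio of DKO to Pou4f1KO of -1.41. Tfap2b, a factor of neural crest and dorsal neural tube, was the 1 of 19 glia and neural crest genes past 2-fold. It was at 1.93, 2.01, 7.91 and 1.44 TPM (-1.87). For Pou3f2 and Tfap2b Pou4f1KO was the highest library. Pcdh10, a protocadherin, was higher with the Isl1 label in both pairs, at 62.7 TPM in Isl1CKO against 20.1 in control and 87.9 in DKO against 38.5 in Pou4f1KO.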
